A study of Mus musculus with 26 samples.

Results

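The Eph-ephrin, Slit-Robo and netrin families of axon guidance molecules were followed across 8 subtypes of sensory neuron sorted from mouse dorsal root ganglia. The set held 35 genes, matched by symbol in the deposited RPKM table and by Ensembl identifier in the count table, of 39017 genes in all. It comprised 9 EphA and 5 EphB receptors, 5 ephrin-A and 3 ephrin-B ligands, 3 Slit ligands, 3 Robo receptors, 5 netrin receptors and 2 netrins. All 35 passed the filter on low counts and were among the 17411 genes tested.

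Eph receptors are receptor tyrosine kinases that bind ephrins held on the surface of neighbouring cells. Ephrin-A ligands are tethered by a lipid anchor and ephrin-B ligands by a transmembrane domain, and both can also signal backwards into the cell that carries them. Slits are large secreted proteins that act through Robo receptors, and in sensory ganglia they are known for collapsing or branching growing axons. Netrins attract axons through DCC and repel them through UNC5 receptors. These systems are best known for wiring the embryo, whereas the neurons measured here were adult.

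Each library was bulk RNA-seq of fluorescent neurons from mice of postnatal day 23 or older. Nonpeptidergic nociceptors carried MrgD-EGFP and peptidergic nociceptors CGRP-GFP, both without tamoxifen. C-LTMRs, unmyelinated low-threshold touch neurons, came from ThCreER; R26tdtomato (Ai14) mice given tamoxifen at 2 mg per day within postnatal days 13 to 15. Aδ-LTMRs came from TrkBCreER; R26tdtomato (Ai14) mice given 2 mg per day on embryonic days 12 to 13. Rapidly adapting Aβ RA-LTMRs carried Npy2r-GFP without tamoxifen. Slowly adapting Aβ SA1-LTMRs and Aβ Field-LTMRs both carried TrkCCreER; Retf(GFP), the former with 3 mg at E12.5 and the latter with 2 mg per day within postnatal days 13 to 15. Proprioceptors carried PVIRESCre; R26tdtomato (Ai14) without tamoxifen and came from thoracic ganglia alone, whereas the other subtypes came from every spinal level. Line, reporter, tamoxifen and ganglion level therefore differed together with subtype and cannot be told apart from it. Of 26 libraries, 5 were Aβ RA-LTMRs and each other subtype had 3. Each pooled several mice and several sorts, so p-values measure the spread between pools.

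Library totals ran from 10706522 counts (Aβ Field-LTMR library 2) to 66309214 (C-LTMR library 3). All 7 sensory neuron markers were above 1 CPM in every subtype. The genes behind the labels were highest in their own subtype for Mrgprd, Calca, Th and Pvalb, but Npy2r was higher in peptidergic nociceptors (47.3 to 56.6 CPM) than in the Aβ RA-LTMRs sorted with it (15.4 to 25.9 CPM). Ntrk2, Necab2 and Colq summed to 523 to 705 CPM in Aδ-LTMRs and 432 to 489 in Aβ RA-LTMRs, the next. Ntrk3, Ret and Nefh summed to 4106 to 4653 in Aβ SA1- and 3008 to 4869 in Aβ Field-LTMRs. The same sum was 3110 to 4214 in Aβ RA-LTMRs and 2826 to 3768 in proprioceptors, so it did not set Aβ Field-LTMRs apart. All 8 satellite glia markers were above 1 CPM in every subtype. Their summed level was least in nonpeptidergic nociceptors at 421 to 514 CPM and greatest in proprioceptors at 2064 to 4235. It was 789 to 1188 CPM in peptidergic nociceptors, 651 to 804 in C-LTMRs, 1389 to 1991 in Aδ-LTMRs, 1437 to 3324 in Aβ RA-LTMRs, 827 to 1088 in Aβ SA1-LTMRs and 1054 to 1684 in Aβ Field-LTMRs. The 8 endothelial markers summed to 28.5 to 72.7 CPM in Aδ-LTMRs and to at most 9.05 elsewhere. The 7 pericyte markers summed to 686 to 1754 CPM in C-LTMRs, where 5 were under 1 CPM and Rgs5 alone held 681 to 1750, to 180 to 538 in Aδ-LTMRs, where 1 was under 1 CPM, and to at most 139 elsewhere. The 7 macrophage markers summed to at most 7.05 in any library. Aδ-LTMR libraries 1 and 2 had reads of up to 51 bases and mapping rates of 61.4% and 74.5%, against at least 86.1% elsewhere. In bulk RNA, fewer cells of a type and less RNA per cell cannot be told apart.

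Robo2, Slit1 or Slit2 was the most abundant of the 35 in every subtype. Compared between genes as RPKM, which is scaled by gene length, the highest member was Robo2 in 5 subtypes, Slit1 in C-LTMRs (152 ± 20.4, mean ± SD over libraries, as for all levels, n = 3), and Slit2 in Aβ SA1-LTMRs (36.5 ± 3.86, n = 3) and proprioceptors (56.3 ± 7.89, n = 3). The number of members with a mean of at least 1 RPKM was least in nonpeptidergic nociceptors at 12 and greatest in proprioceptors at 22. Ephb6, Efna1, Efna5, Efnb2, Slit1, Robo1, Robo2 and Unc5a reached it in all 8 subtypes. Epha1, Epha2, Epha3, Epha8, Ephb3, Ephb4, Efna4, Efnb3, Robo3 and Ntn1 stayed below it in every subtype, and their values rest on fewer reads.

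**Figure D1:**
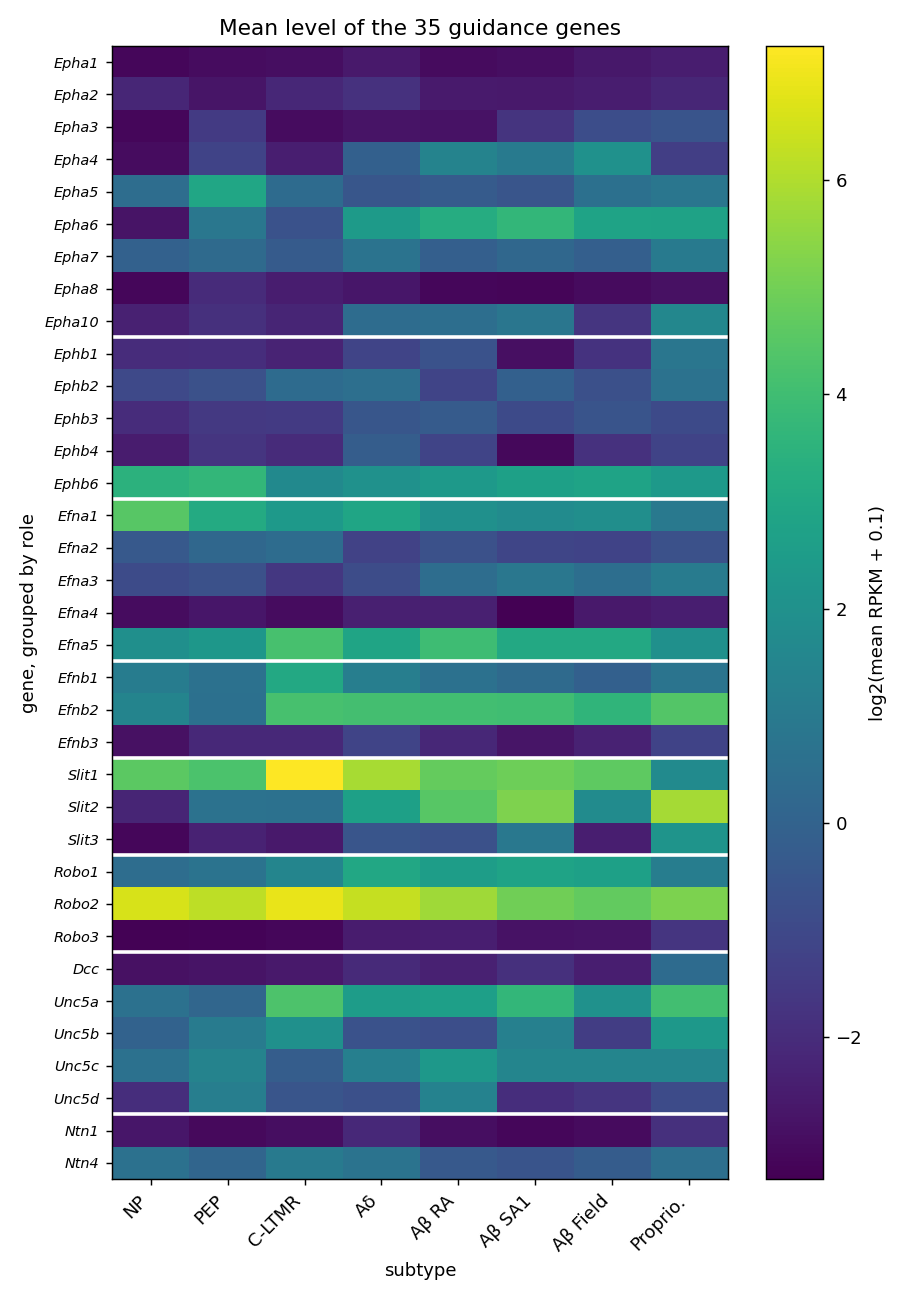
Mean level of each of the 35 genes (vertical axis, grouped by role with white lines between groups) in the 8 subtypes (horizontal axis), coloured by log2 of mean RPKM plus 0.1. Robo2 is bright in every subtype, Slit1 is brightest in C-LTMRs (152 RPKM), and Slit2 is bright in Aβ SA1-LTMRs and proprioceptors (36.5 and 56.3 RPKM).

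Most members differed among subtypes. In an F test over the 8 subtypes, 31 of 35 (88.6%) had an edgeR adjusted p under 0.05, beside 78.3% of all genes tested, so most of this share is also seen over all genes. The list was chosen with earlier results of these data known, so shares here and below describe it and do not test the family. Epha1, Epha2, Efna2 and Efna4 did not pass. A gene counted as enriched when it passed an adjusted p under 0.05 and a 2-fold difference, 1 on the log2 scale, above each of the other 7 subtypes, and as depleted when it did so below them. In all, 6 members were enriched, 17.1% beside 5.53% of all genes. They were Efna1 in nonpeptidergic nociceptors, Epha5 in peptidergic nociceptors, Efnb1 and Slit1 in C-LTMRs, and Ephb1 and Dcc in proprioceptors. Another 6 results were depletions, 17.1% of members beside 9.18% of all genes. These were Epha6 and Slit2 in nonpeptidergic nociceptors, Efnb2 and Unc5a in peptidergic nociceptors, Unc5c in C-LTMRs and Slit1 in proprioceptors. Adjusted for the satellite glia score (the mean log2 CPM of its 8 markers as a model term), 0 members were enriched. Here and in later counts under alternative fits, the share over all genes was not computed. The score itself differed by subtype, from 5.12 in nonpeptidergic nociceptors to 7.49 in proprioceptors. Without Aδ-LTMR libraries 1 and 2, left out after seeing the data, the enrichments of Epha5 and Slit1 passed and the other 4 did not. The smallest of the 7 differences was then 2.89 for Dcc (edgeR adjusted p = 0.208), 1.49 for Ephb1 (adjusted p = 0.128), 1.57 for Efnb1 (adjusted p = 0.114) and 0.99 for Efna1 (adjusted p = 0.134), beside 2.87, 1.52, 1.72 and 1.40 with all libraries.

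Slit1 was high in other subtypes than Slit2 and Slit3, which shared an order of subtype means. Slit1 (chr19:41600257-41743665 on mm10, minus strand) was high in C-LTMRs and low in proprioceptors. Its CPM in the single libraries were 42.8, 70.9 and 76.8 in nonpeptidergic nociceptors, 46.8, 47.6 and 48.5 in peptidergic nociceptors, and 282, 342 and 312 in C-LTMRs. Among A-fibre subtypes they were 80.7, 103 and 123 in Aδ-LTMRs, 79.5, 80.0, 112, 69.3 and 76.9 in Aβ RA-LTMRs, 82.7, 101.4 and 64.1 in Aβ SA1-LTMRs, 104, 54.0 and 44.6 in Aβ Field-LTMRs, and 16.8, 8.33 and 8.54 in proprioceptors. No other library reached the lowest C-LTMR library, and no other library was as low as the highest proprioceptor library. C-LTMRs exceeded the next subtype, Aδ-LTMRs, by 1.61 ± 0.29 on the log2 scale (SE, edgeR adjusted p = 0.000154). Proprioceptors lay below the next lowest subtype, peptidergic nociceptors, by 2.10 ± 0.30 on the log2 scale (SE, edgeR adjusted p = 3.33e-06). The subtypes between them did not pass the test against their neighbours in the order of means. Adjusted for the satellite glia score, the C-LTMR enrichment was 1.20 (edgeR adjusted p = 0.156) and the proprioceptor depletion -1.73 (adjusted p = 0.198). With the endothelial score the enrichment was 1.07 (edgeR adjusted p = 0.368).

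Slit2 (chr5:47983138-48307733, plus strand) was nearly silent in nonpeptidergic nociceptors and abundant in Aβ RA-LTMRs, Aβ SA1-LTMRs and proprioceptors. Its CPM were 0.552, 0.185 and 0.298 in nonpeptidergic nociceptors, 3.15, 5.45 and 5.79 in peptidergic nociceptors, and 3.84, 3.57 and 3.51 in C-LTMRs. In A-fibre neurons the CPM were 37.4, 24.4 and 23.9 in Aδ-LTMRs, 99.4, 109.6, 137, 71.3 and 64.9 in Aβ RA-LTMRs, 106, 222 and 163 in Aβ SA1-LTMRs, 13.9, 17.1 and 8.92 in Aβ Field-LTMRs, and 206, 194 and 209.8 in proprioceptors. Every A-fibre library lay above every nociceptor and C-LTMR library. From the top, proprioceptors and Aβ SA1-LTMRs did not differ beyond their spread (adjusted p = 0.465 by edgeR), nor did Aβ SA1- and Aβ RA-LTMRs at the threshold (adjusted p = 0.0522). Aβ RA-LTMRs then exceeded Aδ-LTMRs by 1.76 ± 0.29 on the log2 scale (SE, edgeR adjusted p = 0.000121). Aδ-LTMRs exceeded Aβ Field-LTMRs (edgeR adjusted p = 0.0156) and these exceeded peptidergic nociceptors (adjusted p = 0.00121). Nonpeptidergic nociceptors lay below C-LTMRs, the next lowest, by 3.36 ± 0.38 on the log2 scale (SE, edgeR adjusted p = 1.55e-07).

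Slit3 (chr11:35121224-35708507) followed the same order of subtype means at a far lower level, 4.31 ± 0.714 RPKM in proprioceptors (n = 3) against 56.3 ± 7.89 for Slit2. Its CPM were 14.4, 13.002 and 16.1 in proprioceptors, 1.04, 9.98 and 4.29 in Aβ SA1-LTMRs, 0.526, 2.97, 2.52, 1.42 and 0.905 in Aβ RA-LTMRs, 1.78, 1.19 and 0.465 in Aδ-LTMRs and 0.761, 0.304 and 0.0656 in Aβ Field-LTMRs. In nonpeptidergic nociceptors, peptidergic nociceptors and C-LTMRs no library exceeded 0.419 CPM. All proprioceptor libraries lay above all others, and the Aβ SA1-LTMR libraries were spread widely. Summed as RPKM, the 3 Slits came to 154 ± 19.8 in C-LTMRs, 99.0% of it Slit1. The sum was 68.7 ± 5.91 in Aβ SA1-LTMRs and 63.9 ± 9.13 in proprioceptors, where Slit2 made up 53.2% and 88.1%. The leading ligand therefore differed between C-LTMRs and these subtypes.

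Robo receptors bind Slits, and the same libraries that held Slit RNA held Robo RNA. Robo2 (chr16:73891839-74411825) made up 80.2% to 98.7% of the summed Robo RPKM in each subtype. The sum was highest in C-LTMRs at 123 ± 6.03 and lowest in Aβ Field-LTMRs at 32.5 ± 14.8 (n = 3 each). Robo2 CPM were 277, 279 and 294 in nonpeptidergic nociceptors, 200.4, 197 and 229 in peptidergic nociceptors, and 353, 339 and 335 in C-LTMRs. A-fibre libraries held 591, 677 and 319 in Aδ-LTMRs, 169.8, 197, 203, 172 and 126 in Aβ RA-LTMRs, 73.1, 77.7 and 79.6 in Aβ SA1-LTMRs, 104, 144 and 60.6 in Aβ Field-LTMRs, and 147, 117 and 130.3 in proprioceptors. Ordered by mean CPM, no subtype passed the test against its neighbour. C-LTMRs exceeded Aβ SA1-LTMRs by 2.16 ± 0.25 on the log2 scale (SE, edgeR adjusted p = 1.73e-07). The top of the order depended on the scale, since Aδ-LTMRs led in CPM but their RPKM of 75.3, 69.2 and 93.8 lay below the 122, 113 and 125 of C-LTMRs. The ratio of CPM to RPKM over genes in Aδ-LTMR libraries 1 and 2 stood at 1.19 and 1.35 relative to each gene's median over libraries, and its part in this difference was not tested.

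Robo1 (chr16:72308306-73046095) was low in nociceptors, C-LTMRs and proprioceptors, though like Robo2 it had its highest mean CPM in Aδ-LTMRs. It was 13.1 ± 1.08 CPM in nonpeptidergic and 13.7 ± 1.77 in peptidergic nociceptors and 23.8 ± 2.79 in C-LTMRs (SD, n = 3). In the touch A-fibre subtypes it ran from 61.0 ± 14.9 in Aβ RA-LTMRs (n = 5) to 107 ± 29.2 in Aδ-LTMRs (n = 3), and it was 23.6 ± 5.54 in proprioceptors (n = 3). Robo3, a receptor known from commissural axons of the embryo, was under 1 RPKM throughout. Its highest library was Aβ RA-LTMR library 5 at 0.624 CPM.

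**Figure D2:**
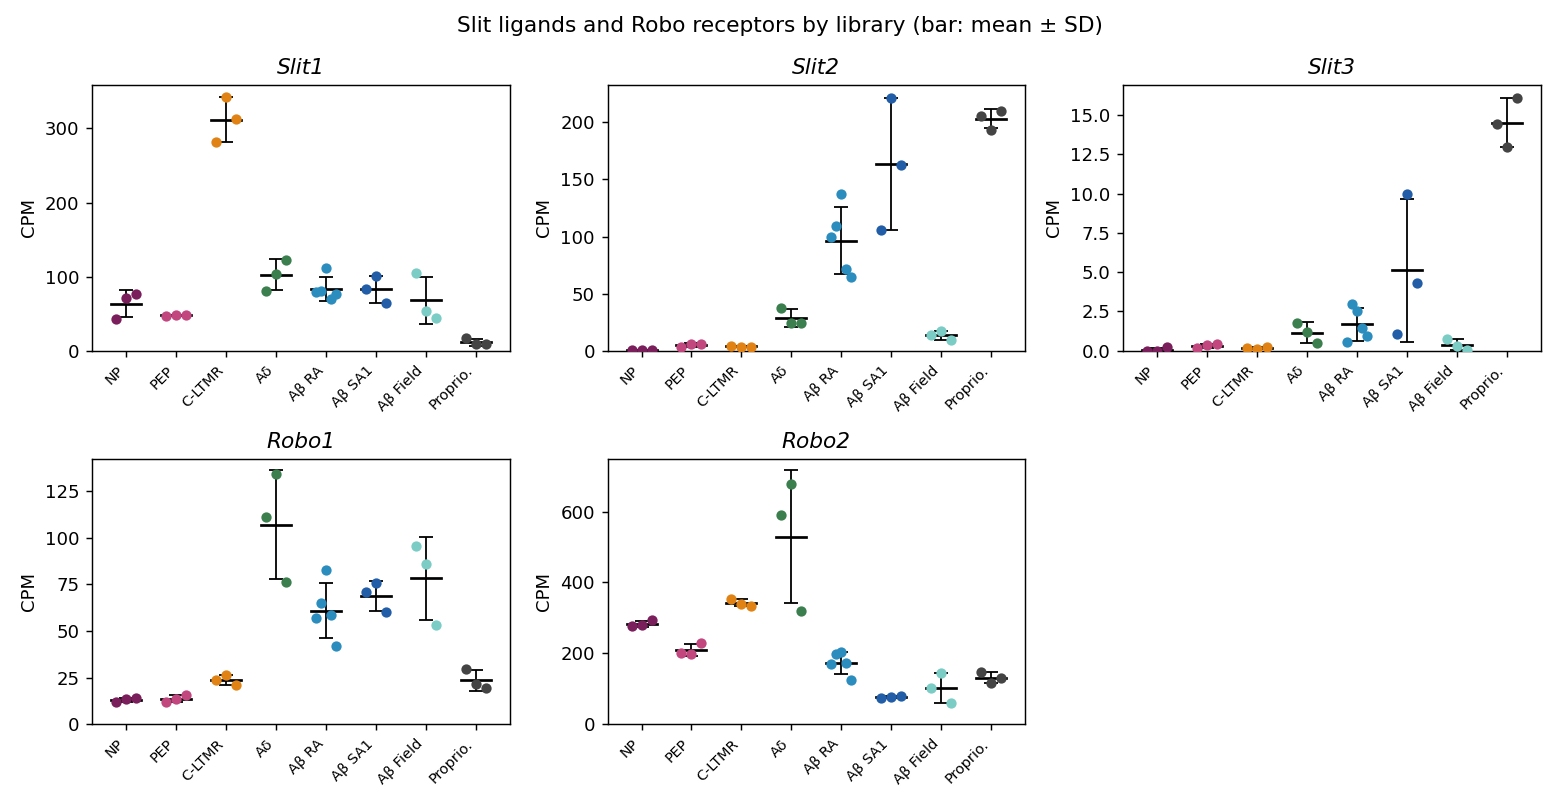
CPM of Slit1, Slit2, Slit3, Robo1 and Robo2 (vertical axes, linear) in every library of the 8 subtypes (points), with a bar for the mean and whiskers for the SD. Slit1 peaks in C-LTMRs at 312 CPM, Slit2 in proprioceptors at 203 CPM, and Robo1 is above 40 CPM in every library of the 4 LTMR A-fibre subtypes.

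Summed as RPKM, netrin receptors were most abundant in proprioceptors (25.6 ± 3.99) and C-LTMRs (24.6 ± 4.54) and least in nonpeptidergic nociceptors (3.96 ± 0.618, SD, n = 3 each). The sum was 7.24 ± 0.930 in Aβ Field-LTMRs, 7.78 ± 0.750 in peptidergic nociceptors, 9.11 ± 2.26 in Aδ-LTMRs, 13.98 ± 2.09 in Aβ RA-LTMRs and 18.2 ± 5.53 in Aβ SA1-LTMRs. Summed as CPM the order was different. Proprioceptors (130.4 ± 10.6) were followed by Aβ RA-LTMRs (119 ± 15.4), and C-LTMRs (62.3 ± 1.73) lay below peptidergic nociceptors (76.8 ± 6.50). The UNC5 genes encode repellent receptors. Dcc, the attractive receptor (chr18:71253634-72351069), reached 1 RPKM only in proprioceptors, at 1.19 ± 0.289. Dcc CPM were 0.570, 0.0231 and 0.232 in nonpeptidergic nociceptors, 0.240, 0.344 and 0.314 in peptidergic nociceptors, and 0.450, 0.390 and 0.346 in C-LTMRs. The A-fibre values were 0.860, 0.966 and 0.873 in Aδ-LTMRs, 0.943, 1.15, 0.350, 0.888 and 0.0312 in Aβ RA-LTMRs, 0.0764, 1.01 and 2.54 in Aβ SA1-LTMRs, 0.162, 1.12 and 0.481 in Aβ Field-LTMRs, and 12.2, 6.004 and 8.49 in proprioceptors. All 3 proprioceptor libraries lay above all 23 others. The smallest of the 7 differences was 2.87 on the log2 scale (edgeR adjusted p = 0.0182), against Aβ SA1-LTMRs. That call was lost without proprioceptor library 1 (2.54, edgeR adjusted p = 0.0589), without Aβ SA1-LTMR library 2 (adjusted p = 0.0535), and once adjusted for the satellite glia score (3.19, adjusted p = 0.387). It was also lost with the read-length class (3.34, edgeR adjusted p = 0.168) and the endothelial score (2.34, adjusted p = 0.0858). On log2(RPKM + 1) the difference was 0.90, short of 2-fold.

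Unc5a (chr13:54949411-55006018) was high in proprioceptors, C-LTMRs and Aβ SA1-LTMRs and lowest in peptidergic nociceptors. Its CPM were 4.10, 1.76 and 2.87 in nonpeptidergic nociceptors, 0.847, 1.99 and 1.29 in peptidergic nociceptors, and 24.9, 27.6 and 25.7 in C-LTMRs. Across A-fibre subtypes CPM were 5.54, 6.17 and 9.23 in Aδ-LTMRs, 13.6, 11.6, 12.4, 14.3 and 17.6 in Aβ RA-LTMRs, 21.3, 21.7 and 25.8 in Aβ SA1-LTMRs, 6.58, 4.66 and 6.21 in Aβ Field-LTMRs, and 48.5, 35.6 and 31.3 in proprioceptors. Proprioceptors and C-LTMRs did not differ beyond their spread (edgeR adjusted p = 0.101), nor did C-LTMRs and Aβ SA1-LTMRs (adjusted p = 0.623). Peptidergic nociceptors lay below nonpeptidergic ones by 1.09 ± 0.30 on the log2 scale (SE, edgeR adjusted p = 0.00499), and without nonpeptidergic library 1 or peptidergic library 1 this depletion was -0.76 and -0.83, no longer past 2-fold. Their libraries overlapped, at 4.10, 1.76 and 2.87 against 0.847, 1.99 and 1.29 CPM. After adjustment for the satellite glia score the depletion was -1.03 (edgeR adjusted p = 0.222). Tested with limma, it was -0.40 on log2(RPKM + 0.1) and -0.25 on log2(RPKM + 1) (adjusted p = 0.299 and 0.469).

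Unc5b (chr10:60762593-60831581) shared the 3 high subtypes but not the order below them. Its CPM were 2.44, 4.69 and 6.81 in nonpeptidergic nociceptors, 11.8, 9.62 and 9.04 in peptidergic nociceptors, and 21.5, 17.7 and 16.9 in C-LTMRs. Among A-fibre subtypes they were 2.82, 1.82 and 1.96 in Aδ-LTMRs, 3.37, 3.22, 3.74, 3.02 and 2.09 in Aβ RA-LTMRs, 11.2, 12.7 and 18.3 in Aβ SA1-LTMRs, 1.57, 1.42 and 1.62 in Aβ Field-LTMRs, and 26.1, 30.6 and 29.1 in proprioceptors. Peptidergic nociceptors stood next to Aβ SA1-LTMRs and did not differ from them beyond the spread (edgeR adjusted p = 0.181). The lowest subtype was Aβ Field-LTMRs, which did not pass the test against Aδ-LTMRs (edgeR adjusted p = 0.297).

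Unc5c (chr3:141465216-141834924) ran the other way, lowest in C-LTMRs. Its CPM were 20.01, 25.5 and 20.6 in nonpeptidergic nociceptors, 37.4, 33.6 and 34.3 in peptidergic nociceptors, and 8.45, 8.85 and 9.98 in C-LTMRs. In A-fibre neurons the CPM were 41.0, 33.5 and 26.8 in Aδ-LTMRs, 65.7, 65.2, 73.9, 64.6 and 61.4 in Aβ RA-LTMRs, 28.2, 56.2 and 42.5 in Aβ SA1-LTMRs, 63.3, 45.4 and 35.8 in Aβ Field-LTMRs, and 47.1, 49.1 and 45.7 in proprioceptors. All 3 C-LTMR libraries lay below all others. The smallest of the 7 differences was -1.28 (edgeR adjusted p = 3.87e-05), against nonpeptidergic nociceptors. It was -0.86 (adjusted p = 0.0542) on log2(RPKM + 0.1) tested with limma.

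Unc5d was high in peptidergic nociceptors and Aβ RA-LTMRs. Its CPM were 2.03, 2.29 and 3.84 in nonpeptidergic nociceptors, 33.1, 24.8 and 31.6 in peptidergic nociceptors, and 8.74, 7.83 and 7.70 in C-LTMRs. A-fibre libraries held 13.2, 8.43 and 9.83 in Aδ-LTMRs, 37.4, 24.7, 54.3, 32.2 and 27.5 in Aβ RA-LTMRs, 3.64, 2.06 and 0.604 in Aβ SA1-LTMRs, 6.67, 4.76 and 0.569 in Aβ Field-LTMRs, and 8.12, 6.84 and 6.48 in proprioceptors. Both of those subtypes had no library below 24.7 CPM, whereas all other libraries stayed at or below 13.2. Among the 2 netrins, Ntn4, a laminin-binding netrin, ran from 0.576 ± 0.175 RPKM in Aβ SA1-LTMRs to 1.93 ± 1.01 in C-LTMRs (n = 3), with overlapping libraries. Ntn1, the classical attractant, was below 1 RPKM in every subtype.

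**Figure D3:**
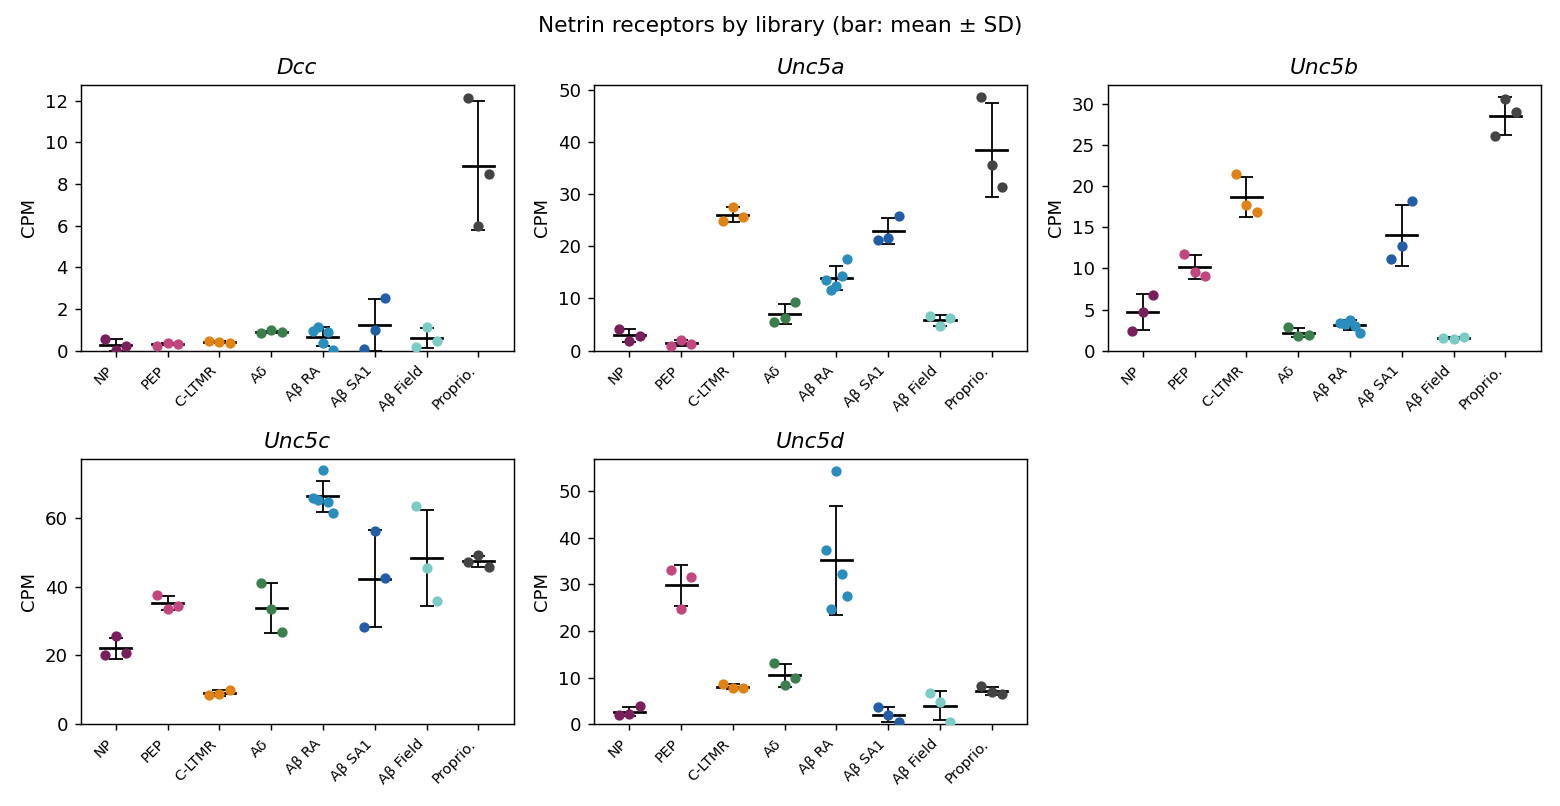
CPM of Dcc and the 4 Unc5 genes (vertical axes, linear) in every library of the 8 subtypes (points), with a bar for the mean and whiskers for the SD. Dcc is above 5 CPM in proprioceptors alone, and Unc5c is lowest in C-LTMRs at 9.09 CPM.

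Summed as RPKM, ephrin-A ligands were highest in nonpeptidergic nociceptors (27.5 ± 3.48) and C-LTMRs (24.7 ± 2.46) and lowest in proprioceptors (8.21 ± 1.68, SD, n = 3 each). Efna1 made up 82.3% of the sum in nonpeptidergic nociceptors and Efna5 73.1% in C-LTMRs. Efna1 (chr3:89271733-89281142), a lipid-anchored ligand, was highest in nonpeptidergic nociceptors. Its CPM were 26.4, 30.8 and 35.4 in nonpeptidergic nociceptors, 14.97, 9.14 and 10.9 in peptidergic nociceptors, and 7.44, 5.87 and 6.92 in C-LTMRs. The A-fibre values were 6.02, 7.13 and 15.1 in Aδ-LTMRs, 6.33, 8.43, 5.38, 6.13 and 6.37 in Aβ RA-LTMRs, 4.11, 4.14 and 6.58 in Aβ SA1-LTMRs, 4.82, 6.08 and 5.62 in Aβ Field-LTMRs, and 5.12, 2.27 and 1.56 in proprioceptors. No library of another subtype reached the lowest nonpeptidergic library. The next subtype, peptidergic nociceptors, was lower by 1.40 ± 0.34 on the log2 scale (SE, edgeR adjusted p = 0.00220). Adjusted for satellite glia, the smallest of the 7 differences was 0.42 (edgeR adjusted p = 0.800), and with the read-length class it was 1.03 (adjusted p = 0.0905).

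Efna5 (chr17:62604184-62881317), a further ephrin-A ligand, was high in C-LTMRs and Aβ RA-LTMRs. Its CPM were 6.47, 5.62 and 4.97 in nonpeptidergic nociceptors, 5.40, 5.39 and 6.09 in peptidergic nociceptors, and 22.2, 21.0 and 18.7 in C-LTMRs. Across A-fibre subtypes CPM were 12.1, 14.5 and 10.8 in Aδ-LTMRs, 15.5, 21.0, 22.2, 22.7 and 24.4 in Aβ RA-LTMRs, 14.9, 12.2 and 8.32 in Aβ SA1-LTMRs, 17.7, 12.8 and 9.78 in Aβ Field-LTMRs, and 5.94, 5.11 and 5.41 in proprioceptors. Both nociceptor subtypes and proprioceptors were low, and no neighbour among these 3 passed the test. The RPKM table lists Efna5 under a further identifier that has 0 counts in all 26 libraries, so the overlap of gene models may leave out reads, and the level of Efna5 against other genes is uncertain. Efna3 was 0.156 ± 0.0292 CPM in nonpeptidergic nociceptors and 3.40 ± 1.94 in Aβ SA1-LTMRs (SD, n = 3). Efna2 ran from 0.667 ± 0.5996 to 1.95 ± 0.211 CPM and did not pass the F test. Efna4 was at or below 0.444 CPM in every library.

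Efnb2 (chr8:8617434-8661242), a transmembrane ephrin, was low in nociceptors and high in every other subtype. Its CPM were 18.6, 15.3 and 19.2 in nonpeptidergic nociceptors, 4.82, 9.95 and 8.53 in peptidergic nociceptors, and 97.1, 105 and 93.7 in C-LTMRs. Among A-fibre subtypes they were 143, 156 and 124 in Aδ-LTMRs, 99.9, 117, 115, 63.7 and 104 in Aβ RA-LTMRs, 68.5, 125 and 91.0 in Aβ SA1-LTMRs, 92.4, 78.3 and 93.7 in Aβ Field-LTMRs, and 111, 154 and 162 in proprioceptors. The lowest library outside the nociceptors held 63.7 CPM, above all 6 nociceptor libraries. Peptidergic nociceptors lay below nonpeptidergic ones by 1.19 ± 0.24 on the log2 scale (SE, edgeR adjusted p = 0.000422), a depletion of -0.94 without peptidergic library 1. The 6 subtypes above did not pass the test against their neighbours.

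Efnb1 (chrX:99136130-99148991) was highest in C-LTMRs, as Slit1 was. Its CPM were 4.37, 5.73 and 6.66 in nonpeptidergic nociceptors, 2.14, 4.25 and 3.98 in peptidergic nociceptors, and 18.7, 19.6 and 18.3 in C-LTMRs. In A-fibre neurons the CPM were 4.48, 6.24 and 6.44 in Aδ-LTMRs, 3.90, 2.62, 4.02, 2.40 and 5.25 in Aβ RA-LTMRs, 1.68, 5.01 and 1.13 in Aβ SA1-LTMRs, 3.88, 2.64 and 1.03 in Aβ Field-LTMRs, and 4.63, 3.96 and 5.79 in proprioceptors. All C-LTMR libraries exceeded all others. The smallest of the 7 differences was 1.72 (edgeR adjusted p = 0.00492). It was 1.13 (edgeR adjusted p = 0.109) with the satellite glia score, 1.32 (adjusted p = 0.505) with the endothelial score and 1.55 (adjusted p = 0.101) with the read-length class. Summed ephrin-B RPKM was 4.71 ± 0.537 in nonpeptidergic and 2.99 ± 0.909 in peptidergic nociceptors and ran from 12.8 ± 3.57 to 26.5 ± 0.601 elsewhere. Efnb3 added at most 0.352 ± 0.187 RPKM.

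By RPKM, the leading EphA receptor changed from Epha5 in nociceptors and C-LTMRs to Epha6 in A-fibre subtypes. By CPM, Epha4 led in Aβ Field-LTMRs, at 43.1% of the EphA sum. Epha5 (chr5:84054761-84417382) made up 65.6% of the summed EphA RPKM in peptidergic nociceptors, and Epha6 (chr16:59653483-60605531) 69.4% in Aβ SA1-LTMRs. Epha5 CPM were 7.07, 8.27 and 9.13 in nonpeptidergic nociceptors, 48.7, 40.5 and 44.2 in peptidergic nociceptors, and 8.42, 4.07 and 7.55 in C-LTMRs. A-fibre libraries held 9.28, 5.24 and 3.47 in Aδ-LTMRs, 5.22, 3.77, 7.83, 5.95 and 1.56 in Aβ RA-LTMRs, 1.65, 2.44 and 5.92 in Aβ SA1-LTMRs, 8.63, 12.6 and 10.6 in Aβ Field-LTMRs, and 11.8, 10.5 and 14.4 in proprioceptors. Every peptidergic library stood above 14.4 CPM, the highest of the others. Peptidergic nociceptors exceeded proprioceptors, the next subtype, by 1.86 ± 0.44 on the log2 scale (SE, edgeR adjusted p = 0.00133). The satellite glia adjustment gave a difference of 1.87 (edgeR adjusted p = 0.0592).

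Epha6 was close to 0 in nonpeptidergic nociceptors. Its CPM were 0.588, 0.139 and 0.0994 in nonpeptidergic nociceptors, 6.09, 9.30 and 9.25 in peptidergic nociceptors, and 2.65, 1.33 and 2.53 in C-LTMRs. The A-fibre values were 32.0, 28.9 and 21.4 in Aδ-LTMRs, 44.5, 58.7, 56.3, 39.7 and 23.4 in Aβ RA-LTMRs, 55.5, 65.5 and 40.6 in Aβ SA1-LTMRs, 54.5, 31.8 and 23.9 in Aβ Field-LTMRs, and 37.2, 32.9 and 34.7 in proprioceptors. A-fibre libraries were all above the rest, and no neighbours among the 5 A-fibre subtypes passed the test. Nonpeptidergic nociceptors lay below C-LTMRs, the next lowest, by 2.94 ± 0.47 on the log2 scale (SE, edgeR adjusted p = 2.37e-05).

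Epha4, a receptor that binds both ephrin classes (chr1:77367185-77515088), was high in the touch A-fibre subtypes and low in proprioceptors. Its CPM were 0.125, 0.208 and 0.547 in nonpeptidergic nociceptors, 2.24, 4.02 and 2.79 in peptidergic nociceptors, and 0.477, 0.429 and 1.28 in C-LTMRs. Across A-fibre subtypes CPM were 10.8, 14.6 and 6.52 in Aδ-LTMRs, 25.8, 35.7, 27.3, 18.3 and 12.52 in Aβ RA-LTMRs, 30.8, 4.35 and 12.3 in Aβ SA1-LTMRs, 69.9, 40.7 and 29.8 in Aβ Field-LTMRs, and 2.90, 2.64 and 3.50 in proprioceptors. The libraries of Aβ SA1- and Aβ Field-LTMRs varied widely. Proprioceptors and peptidergic nociceptors, at 3.02 ± 0.440 and 3.02 ± 0.911 CPM (SD, n = 3), were not told apart (edgeR adjusted p = 0.995).

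Epha3 was highest in proprioceptors and Aβ Field-LTMRs. Its CPM were 0, 0.370 and 0.133 in nonpeptidergic nociceptors, 2.36, 2.28 and 2.27 in peptidergic nociceptors, and 0.291, 0.0780 and 0.426 in C-LTMRs. Among A-fibre subtypes they were 1.33, 0.520 and 0.349 in Aδ-LTMRs, 0.453, 0.335, 0.589, 0.355 and 0.250 in Aβ RA-LTMRs, 1.25, 0.236 and 3.63 in Aβ SA1-LTMRs, 6.21, 6.995 and 4.99 in Aβ Field-LTMRs, and 6.26, 5.77 and 7.73 in proprioceptors. Epha10, which encodes a receptor without kinase activity, was highest in proprioceptors. Its CPM were 0.321, 0.555 and 0.282 in nonpeptidergic nociceptors, 0.495, 0.708 and 0.506 in peptidergic nociceptors, and 0.556, 0.195 and 0.333 in C-LTMRs. In A-fibre neurons the CPM were 3.47, 3.20 and 3.103 in Aδ-LTMRs, 5.99, 5.73, 6.21, 6.44 and 3.81 in Aβ RA-LTMRs, 2.46, 7.93 and 7.51 in Aβ SA1-LTMRs, 0.808, 1.32 and 0.175 in Aβ Field-LTMRs, and 10.4, 10.3 and 12.6 in proprioceptors. The proprioceptor libraries all exceeded the rest, and the Aβ Field-LTMR libraries overlapped those of nociceptors. Epha7 ran from 5.11 ± 1.07 CPM in C-LTMRs to 17.6 ± 7.52 in Aδ-LTMRs (SD, n = 3). Epha1, Epha2 and Epha8 had no library above 0.771 CPM.

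Ephb6, also a receptor without kinase activity, led the EphB class by RPKM in all 8 subtypes. Its CPM were 8.45, 10.4 and 10.04 in nonpeptidergic nociceptors, 16.5, 15.8 and 14.8 in peptidergic nociceptors, and 2.46, 2.59 and 3.70 in C-LTMRs. A-fibre libraries held 3.29, 2.34 and 5.88 in Aδ-LTMRs, 7.44, 9.06, 8.14, 4.93 and 7.87 in Aβ RA-LTMRs, 6.71, 8.78 and 8.10 in Aβ SA1-LTMRs, 11.4, 6.995 and 9.71 in Aβ Field-LTMRs, and 4.13, 5.53 and 4.70 in proprioceptors. Peptidergic nociceptors were highest and C-LTMRs lowest, with Aδ-LTMR libraries overlapping the latter. Ephb1 (chr9:101922128-102354693), an active kinase, was highest in proprioceptors. Its CPM were 0.303, 1.16 and 0.895 in nonpeptidergic nociceptors, 1.02, 0.823 and 0.506 in peptidergic nociceptors, and 0.397, 0.702 and 0.386 in C-LTMRs. The A-fibre values were 2.28, 1.63 and 1.63 in Aδ-LTMRs, 2.25, 2.70, 3.57, 3.55 and 3.75 in Aβ RA-LTMRs, 0, 0.450 and 0.175 in Aβ SA1-LTMRs, 1.18, 1.32 and 0.919 in Aβ Field-LTMRs, and 7.12, 9.13 and 10.8 in proprioceptors. All 3 proprioceptor libraries lay above the others, next to Aβ RA-LTMRs, with a smallest difference of 1.52 (edgeR adjusted p = 0.0309). Without Aβ RA-LTMR library 1, 2 or 3 it was 1.41, 1.46 and 1.56 (edgeR adjusted p = 0.0696, 0.0661 and 0.0504), and without proprioceptor library 2 or 3 it was 1.51 and 1.36 (adjusted p = 0.0930 and 0.139). The satellite glia adjustment gave 1.27 (edgeR adjusted p = 0.477). With the read-length class it was 1.31 (edgeR adjusted p = 0.217) and with the endothelial score 1.52 (adjusted p = 0.448). On log2(RPKM + 1) it was 0.78, short of 2-fold. Ephb2 was highest in proprioceptors at 7.90 ± 2.37 CPM (SD, n = 3), Ephb3 in Aβ RA-LTMRs at 3.23 ± 0.631 (n = 5) and Ephb4 in Aδ-LTMRs at 2.05 ± 0.393 (n = 3).

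**Figure D4:**
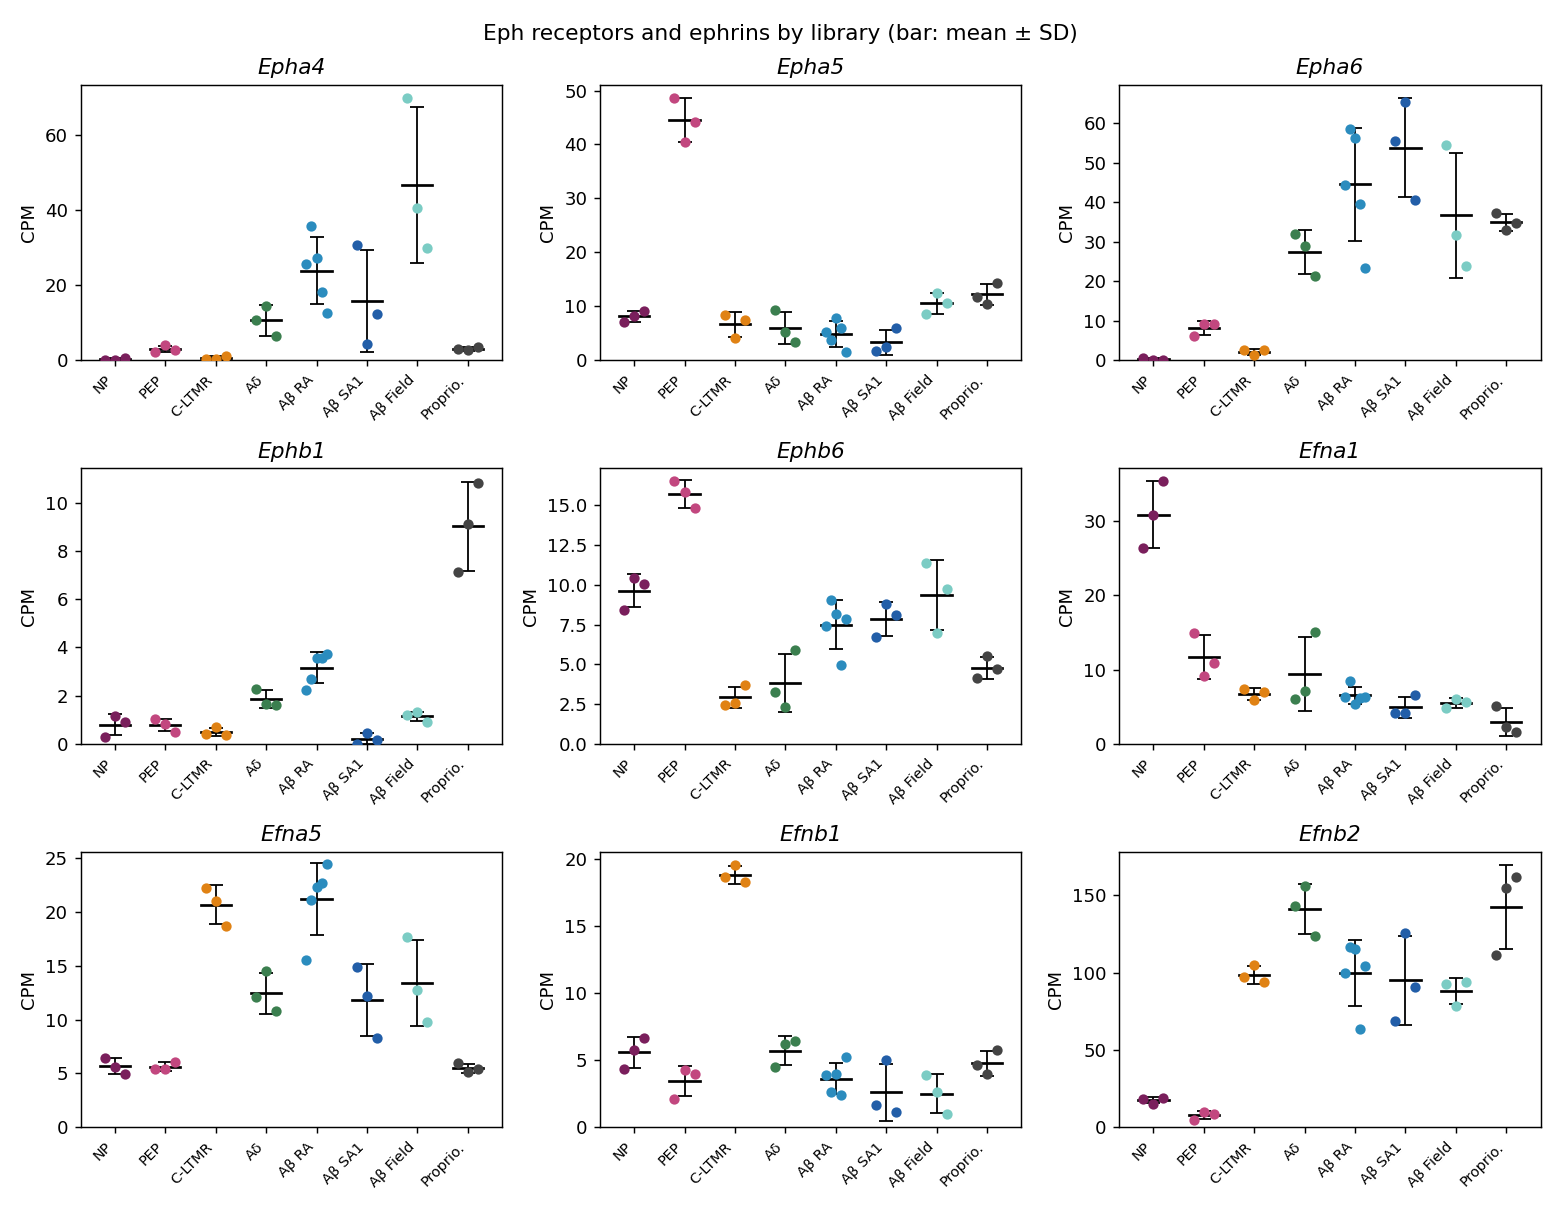
CPM of 5 Eph receptor genes and 4 ephrin genes (vertical axes, linear) in every library of the 8 subtypes (points), with a bar for the mean and whiskers for the SD. Epha5 stands out in peptidergic nociceptors (44.5 CPM), Efna1 in nonpeptidergic nociceptors (30.9), Efnb1 in C-LTMRs (18.8) and Ephb1 in proprioceptors (9.02), and Efnb2 is low in both nociceptor subtypes alone.

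The mean of the 5 A-fibre subtypes was then set against the mean of both nociceptor subtypes and C-LTMRs. Slit2, Epha6, Epha4, Slit3, Epha10 and Efnb2 were higher in A-fibre neurons with the largest differences among members of at least 5 CPM in some subtype. Slit2 was higher by 5.16 ± 0.21 on the log2 scale (SE, edgeR adjusted p = 1.22e-16). Epha6 was higher by 4.49 ± 0.25 on the log2 scale (SE, edgeR adjusted p = 3.22e-14), and both had no overlap between libraries. In all, 17 members passed (48.6%, beside 28.5% of all genes). Of these, 15 were higher and 2, Efna1 and Epha5, were lower. That is 42.9% and 5.71% of members, beside 15.6% and 12.9% of all genes tested. The share of higher members was above that of all genes and the share of lower members below it. Because the list was chosen with earlier results of these data known, this is a description. The median difference of the 35 was 0.77, beside 0.02 over all genes.

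Ligands and receptors both contributed. Epha4 was higher by 4.004 ± 0.34 (SE, edgeR adjusted p = 1.50e-10), although proprioceptor libraries overlapped those of peptidergic nociceptors. Slit3 was higher by 3.80 ± 0.51 (edgeR adjusted p = 5.72e-07), and by 2.44 with adjusted p = 0.151 with adjustment for the satellite glia score. Epha10 and Efnb2 were higher by 3.16 ± 0.28 and 2.22 ± 0.13, with edgeR adjusted p = 2.97e-10 and 2.44e-13. For Efnb2 the C-LTMR libraries lay within the range of the Aβ libraries. The other 9 were Efna3, Robo3, Dcc, Epha3, Robo1, Unc5a, Ephb3, Ephb1 and Unc5c, at differences of 1.28 to 3.13. Of these, Ephb3 alone had no overlap between libraries. Unc5a in C-LTMRs (26.0 CPM) came next after proprioceptors, and Ephb1 was lowest of all in Aβ SA1-LTMRs (0.208). For Epha3, peptidergic nociceptors exceeded Aδ-, Aβ RA- and Aβ SA1-LTMRs by mean CPM. Robo1 was 23.6 CPM in proprioceptors beside 23.8 in C-LTMRs. Dcc was above 5 CPM in proprioceptors alone, and with the satellite glia score its A-fibre difference of 1.98 ± 0.49 became 2.24 (edgeR adjusted p = 0.230). Efna1 and Epha5 were lower by 1.30 ± 0.17 and 1.02 ± 0.21. Robo2, Slit1, Unc5b, Efna2 and Efnb1 had adjusted p under 0.05 but differences of -0.80, -0.82, -0.85, -0.89 and -0.97, short of 2-fold.

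Satellite glia markers were also more abundant in A-fibre libraries (827 to 4235 CPM against 421 to 1188 summed). Adjusted for their score, 9 members passed in the higher direction and 2 in the lower. Libraries with reads of 15 to 50 bases hold no Aβ SA1-LTMRs, and of the Aδ- and Aβ RA-LTMRs only Aδ library 3 and Aβ RA libraries 4 and 5. Within them Slit2 was higher by 4.64 on the log2 scale. Scaling by total counts gave 15 higher and 4 lower while it moved the median of all genes from 0.02 to -0.12.

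Nonpeptidergic and peptidergic nociceptors, both classes of pain neuron, differed in 12 members (34.3%, beside 26.3% of all genes). In all, 9 were lower in nonpeptidergic nociceptors (25.7%, beside 15.3% of all genes) and 3 higher (8.57%, beside 10.9%). The lower share exceeded that of all genes and the higher share was close to it. EphA receptors led the lower group. Epha6 was lower by 4.86 ± 0.48 on the log2 scale (SE, edgeR adjusted p = 1.24e-08). Epha3, Epha4, Epha5 and Epha8 were lower by 3.82 ± 0.83, 3.32 ± 0.63, 2.45 ± 0.45 and 3.40 ± 0.98, the last from 1, 2 and 5 counts in the nonpeptidergic libraries. Slit2 and Unc5d were lower by 3.76 ± 0.38 and 3.45 ± 0.56 (edgeR adjusted p = 2.34e-08 and 2.70e-05), and Efna3 and Unc5b completed the 9. Efna1, Efnb2 and Unc5a were higher in nonpeptidergic nociceptors. None of the 5 EphB receptors passed. Satellite glia markers summed to 421 to 514 CPM against 789 to 1188. Adjusted for their score, 5 members passed. The differences of Epha3 and Epha4 were then -3.1004 ± 1.30 and -3.03 ± 1.05 (SE, edgeR adjusted p = 0.1104 and 0.0517), sizes near the unadjusted ones with larger SE.

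C-LTMRs differed from the mean of both nociceptor subtypes in 11 members (31.4%, beside 12.6% of all genes), 7 higher (20%, beside 7.83% of all genes) and 4 lower (11.4%, beside 4.79%). Unc5a was higher by 3.70 ± 0.24 on the log2 scale (SE, edgeR adjusted p = 8.60e-12). Efnb2, Slit1, Efnb1 and Efna5 were higher by 3.07 ± 0.20, 2.51 ± 0.24, 2.10 ± 0.36 and 1.87 ± 0.19, with no overlap between libraries in any of the 4. Slit2 and Unc5b were the remaining members. Ephb6 was lower by 2.07 ± 0.27 on the log2 scale (SE, edgeR adjusted p = 1.47e-06), and Unc5c, Epha5 and Efna1 by 1.61 ± 0.20, 1.51 ± 0.40 and 1.49 ± 0.32. Of the 7, 5 encode ligands (Efnb2, Slit1, Efnb1, Efna5, Slit2) and none an Eph receptor. The 35 members hold 5 ephrin-As, 3 ephrin-Bs, 3 Slits and 2 netrins, beside 9 EphA and 5 EphB receptors. Ephb2 missed the threshold, at 1.47 ± 0.56 (SE, edgeR adjusted p = 0.0671), with all C-LTMR libraries above all nociceptor libraries. The Slit2 call rests on the nonpeptidergic libraries, since the C-LTMR mean of 3.64 CPM lay below that of peptidergic nociceptors (by 0.40 on the log2 scale, edgeR adjusted p = 0.503) and the libraries overlapped. Pericyte markers summed to 686 to 1754 CPM in C-LTMRs against 34.1 to 57.9 in nonpeptidergic and 11.02 to 139 in peptidergic nociceptors, nearly all of it Rgs5 in C-LTMRs, and their mean log2 CPM was 0.36 against 0.26 and 0.06. Fibroblast markers summed to 133 to 159 CPM against 8.84 to 16.3 and 74.1 to 80.6, with Dcn at 103 to 129 in C-LTMRs. Schwann cell markers summed to 2516 to 2861 CPM against 1757 to 1854 and 957 to 1066, with Pmp22 at 2286 to 2599 in C-LTMRs. The part of these markers in the differences was not tested.

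Aβ SA1- and Aβ Field-LTMRs were labelled by the same alleles at different ages, and they differed in 8 members (22.9%, beside 8.87% of all genes). Slit3, Slit2, Unc5b, Epha10 and Unc5a were higher in Aβ SA1-LTMRs (14.3%, beside 3.21% of all genes). Ephb4, Ephb1 and Epha5 were lower (8.57%, beside 5.66%). Slit2 was higher by 3.64 ± 0.34 on the log2 scale (SE, edgeR adjusted p = 3.43e-07), at 106, 222 and 163 against 13.9, 17.1 and 8.92 CPM. Unc5b and Unc5a, both netrin receptors, were higher by 3.18 ± 0.31 (edgeR adjusted p = 8.19e-07) and 1.96 ± 0.29 (adjusted p = 7.82e-05). Slit3 and Epha10 were higher by 3.70 ± 0.90 (edgeR adjusted p = 0.00791) and 3.13 ± 0.52 (adjusted p = 0.000257). In each of the 5 all Aβ SA1-LTMR libraries lay above all Aβ Field-LTMR libraries, and none of the 8 called members had overlapping libraries. Here and in the other comparisons, the share of all genes without overlap was not computed. Ephb1 was lower by 2.47 ± 0.66 (edgeR adjusted p = 0.0148) at no more than 1.32 CPM in either subtype. Satellite glia markers summed to 827 to 1088 CPM in Aβ SA1-LTMRs and 1054 to 1684 in Aβ Field-LTMRs. Adjusted for their score, 5 members were higher and 1 lower, and Ephb1 was -2.19 ± 0.73 (SE, edgeR adjusted p = 0.0695). All Aβ SA1-LTMR libraries had reads of 25 to 50 bases and all Aβ Field-LTMR libraries 15 to 50, so these cannot be told apart within the pair. Modelled across the series with read-length class as a covariate, Slit3 was 2.90 higher (edgeR adjusted p = 0.115) and Ephb1 -2.12 (adjusted p = 0.139).

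Among members called higher in Aβ SA1- than in Aβ Field-LTMRs, Slit2, Unc5b and Unc5a were above 10 CPM in all Aβ SA1-LTMR libraries. Their RefSeq start sites match a GENCODE start to within 1 base, and the 250 bases before these sites are shown. They are written 5′ to 3′ on the gene's strand, from GRCm38.p6 as given by RefSeq, at chr5:47982905-47983154 (plus), chr10:60831582-60831831 (minus) and chr13:54949161-54949410 (plus). Capitals mark matches on either strand to TGNGGT (the RUNX core), CCGGAA (an ETS core) or GGGCGG (a GC box).
Slit2: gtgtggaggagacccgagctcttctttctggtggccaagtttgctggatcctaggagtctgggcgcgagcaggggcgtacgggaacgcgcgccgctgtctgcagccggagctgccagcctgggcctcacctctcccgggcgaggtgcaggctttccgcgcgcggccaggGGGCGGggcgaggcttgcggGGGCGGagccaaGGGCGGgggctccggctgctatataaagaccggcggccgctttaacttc
Unc5b: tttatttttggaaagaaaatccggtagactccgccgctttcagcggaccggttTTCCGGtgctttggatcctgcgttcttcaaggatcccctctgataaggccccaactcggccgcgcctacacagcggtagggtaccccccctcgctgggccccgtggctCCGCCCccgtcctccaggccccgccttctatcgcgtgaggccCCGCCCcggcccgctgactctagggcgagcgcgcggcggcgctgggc
Unc5a: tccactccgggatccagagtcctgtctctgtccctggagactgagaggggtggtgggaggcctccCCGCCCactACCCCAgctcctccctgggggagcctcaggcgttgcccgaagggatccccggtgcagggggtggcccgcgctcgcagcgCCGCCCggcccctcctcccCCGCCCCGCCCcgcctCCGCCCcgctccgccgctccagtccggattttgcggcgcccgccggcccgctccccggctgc
All 3 windows held GC boxes, 3 in Slit2, 2 in Unc5b and 5 in Unc5a, of which 2 share a base. TGNGGT occurred in Unc5a alone, as TGGGGT on the other strand, and the ETS letters in Unc5b alone. Of 30 members with a promoter in the table, 73.3% held a GC box, 40% TGNGGT and 10% the ETS letters. Over 27025 genes with a window of this length the shares were 32.9%, 39.9% and 12.2%, and median GC content was 52% against 65.2% in members. No factor's binding was measured, and these matches are descriptions of sequence.

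Proprioceptors, the muscle sense neurons, were compared with the mean of the 3 Aβ-LTMR subtypes. In all, 17 members passed (48.6%, beside 17.0% of all genes). Of these, 13 were higher (37.1%, beside 10.7% of all genes) and 4 lower (11.4%, beside 6.24%). Dcc, Ephb1, Slit3 and Unc5b led these among members of 5 CPM or more. Dcc was higher by 3.56 ± 0.61 on the log2 scale (SE, edgeR adjusted p = 7.20e-05). Ephb1 was higher by 3.34 ± 0.41 (edgeR adjusted p = 1.05e-06), Slit3 by 3.28 ± 0.55 (adjusted p = 6.71e-05) and Unc5b by 2.81 ± 0.20 (adjusted p = 1.77e-10). Ntn1, the ligand of these netrin receptors, was also higher by 2.88 ± 0.67 at 0.635, 0.755 and 1.45 CPM. Epha3, Efnb3, Epha10, Ephb2, Slit2, Ephb4, Unc5a and Epha5 were the others. For Epha3, Ephb2, Slit2, Ephb4 and Epha5, proprioceptor libraries overlapped those of Aβ-LTMRs. The contrast averages unlike subtypes: mean Epha3 was 6.59 CPM in proprioceptors and 6.06 in Aβ Field-LTMRs. Mean Slit2 was 203 CPM in proprioceptors and 164 in Aβ SA1-LTMRs, which did not differ when tested as a pair. Epha4, Slit1, Robo1 and Efna5 were lower by 3.11 ± 0.52, 2.80 ± 0.28, 1.55 ± 0.21 and 1.45 ± 0.20 (edgeR adjusted p = 5.85e-05, 3.70e-08, 3.81e-06 and 5.42e-06), each with all 3 proprioceptor libraries below all 11 Aβ libraries. Slit1 and Slit2 were called in opposite directions. Satellite glia markers summed to 2064 to 4235 CPM in proprioceptors against 827 to 3324 in Aβ-LTMRs. Adjusted for their score, 5 members were higher and 4 lower, and Slit3 was higher by 2.13 (edgeR adjusted p = 0.235).

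**Figure D5:**
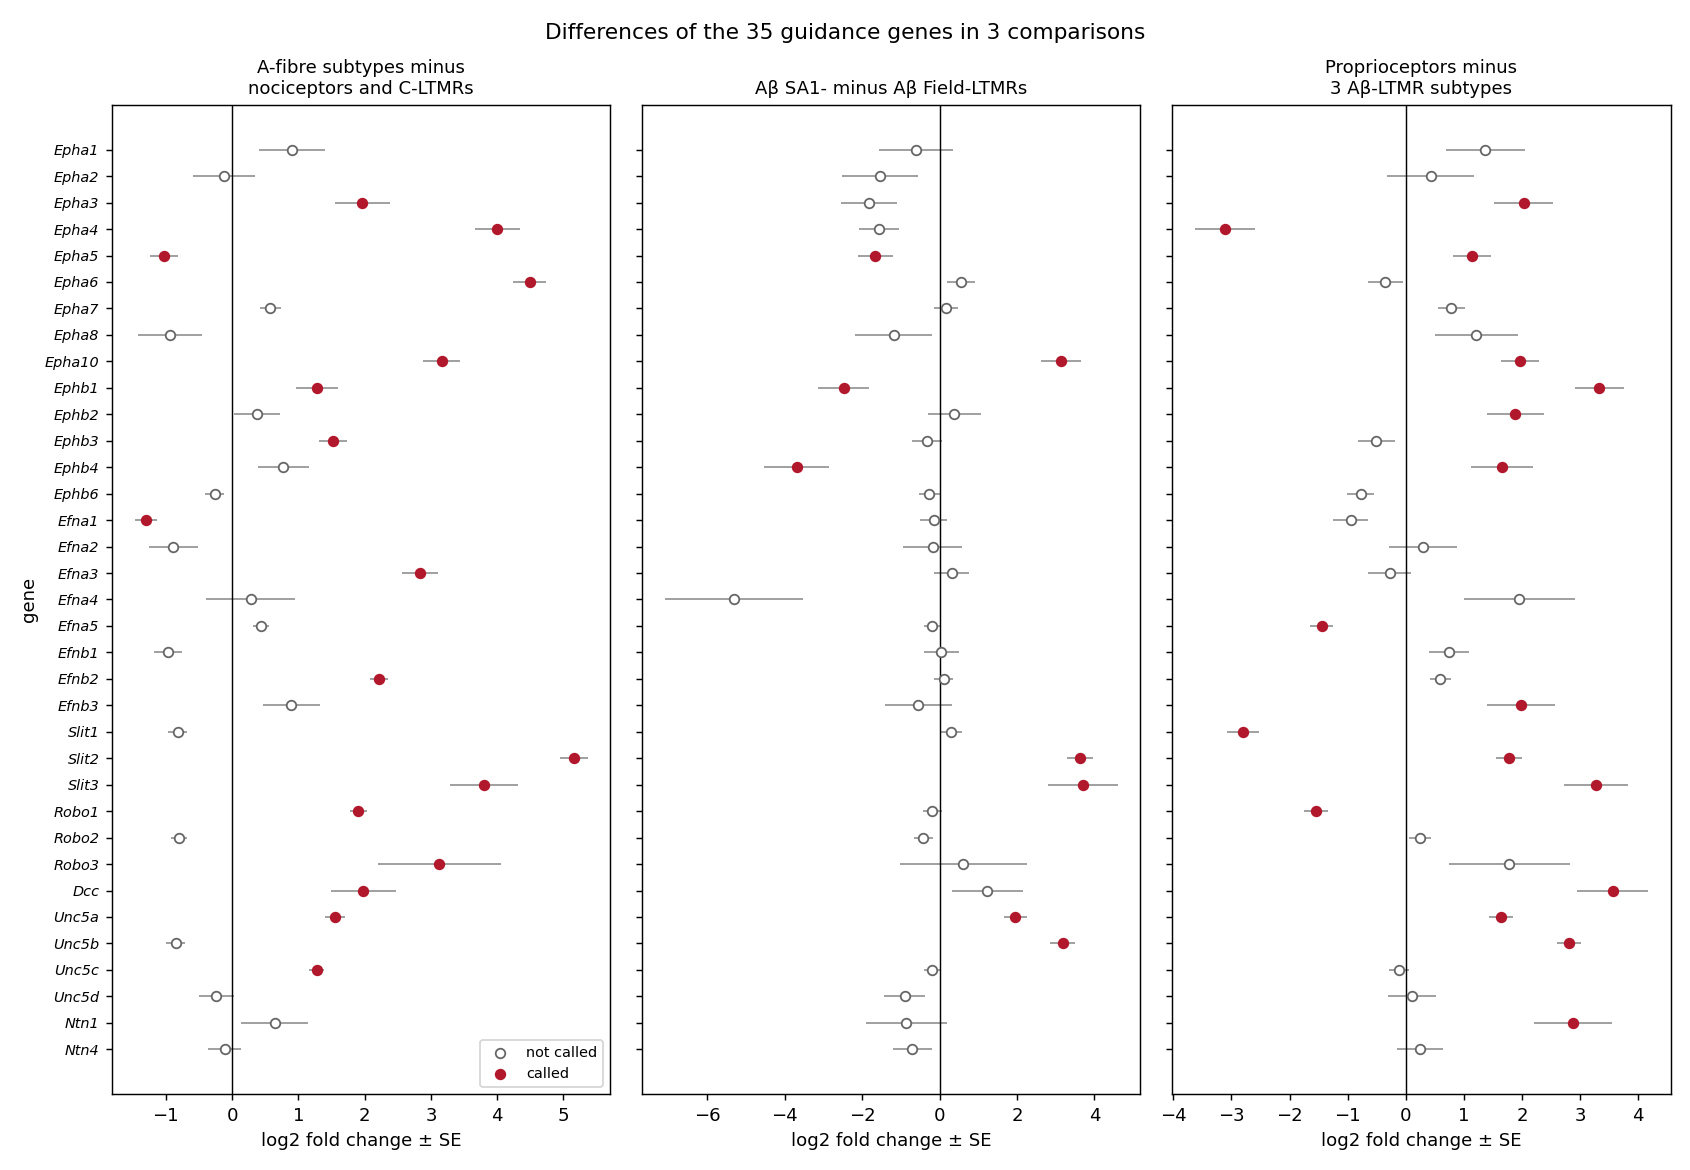
Log2 fold change with its SE (horizontal axes, which differ between panels) of each of the 35 genes (vertical axis) in 3 comparisons. Filled points passed an adjusted p under 0.05 and 2-fold: 17 genes for A-fibre subtypes, 8 for Aβ SA1- against Aβ Field-LTMRs and 17 for proprioceptors against Aβ-LTMRs, with Slit2 to the right in all panels and Epha4 far to the left in the last.

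Partner genes of these pathways, 18 listed with ligands and surface proteins and 31 with cytoplasmic partners, were counted in the same fits. They too were chosen with earlier results of these data known, so their shares are descriptions. In A-fibre neurons 12 of 49 were higher (24.5%, beside 15.6% of all genes) and 4 lower (8.16%, beside 12.9%), with a median log2 difference of 0.48 over the surface list and 0.07 over the cytoplasmic list. Ntng1 and Ntng2, which encode membrane-anchored netrin-G proteins that do not bind DCC, were higher by 4.70 ± 0.31 and 4.08 ± 0.16 (SE, edgeR adjusted p = 2.29e-12 and 7.03e-17). Ntng1 held 291 to 395 CPM in Aβ RA-LTMRs, 182 to 225.3 in Aδ-LTMRs, 12.2 to 32.4 in proprioceptors and at most 9.87 in nociceptors and C-LTMRs. Between the nociceptors 5 were higher (10.2%, beside 10.9% of all genes) and 20 lower (40.8%, beside 15.3%) in nonpeptidergic ones, with medians of -1.40 and -0.25 over the same lists. The largest difference was in Ngef, an exchange factor that binds EphA receptors, at 0 to 0.0713 CPM against 3.26 to 5.14. Flrt1, an adhesion protein of the FLRT family, known as partners of UNC5 receptors, held 1.08 to 2.40 CPM there and 38.3 to 43.2 in peptidergic nociceptors. C-LTMRs had 7 higher (14.3%, beside 7.83% of all genes) and 5 lower (10.2%, beside 4.79%) than nociceptors, and Nell2, a secreted Robo3 ligand, held 32.2 to 34.3 CPM in them. In Aβ SA1- against Aβ Field-LTMRs 4 were higher and 4 lower (8.16% each, beside 3.21% and 5.66% of all genes). Draxin, a secreted DCC ligand, was higher by 2.89 ± 0.93 on the log2 scale (SE, edgeR adjusted p = 0.0408). Vav3, an exchange factor used by Eph receptors, was higher by 2.42 ± 0.25 on the log2 scale (SE, edgeR adjusted p = 1.63e-06), and Chn2, a Rac inhibitor of the chimaerin family, was lower by 2.66 ± 0.56 on the log2 scale (SE, edgeR adjusted p = 0.00266). In proprioceptors 5 were higher (10.2%, beside 10.7% of all genes) and 9 lower (18.4%, beside 6.24%) than in Aβ-LTMRs, with Flrt1 and Ntng1 lower by 3.16 ± 0.49 and 2.89 ± 0.47 (edgeR adjusted p = 2.26e-05 and 4.14e-05).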

How the data were processed

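Per the labels' protocols, NuGEN amplification preceded Illumina TruSeq library preparation. Listed in the submitters' processing notes are FastQC 0.11.3, STAR, the build mm10, HTSeq 0.6.1, Cuffdiff and DESeq2 1.14.1. The authors deposited counts per Ensembl gene, RPKM values, and an alignment summary with read and base shares as a fraction and read lengths as text. Counts were fitted with edgeR 4.0.16 (R 4.3.3). Its filterByExpr, given the 8 groups, left 17411 of 39017 genes, TMM set library factors, and a robust quasi-likelihood fit without covariates was made over all 26 libraries (common dispersion 0.107). P-values were adjusted by the Benjamini-Hochberg method over all genes in each comparison, and a call needed an adjusted p under 0.05 and a log2 fold change of at least 1. SE is the log2 fold change over the root of its F statistic. CPM are scaled by TMM. Comparisons share libraries and are not independent. RPKM levels, deposited by the authors, were used between genes. Alternatives used DESeq2 1.42.0, limma 3.58.1 on log2(RPKM + 0.1) and log2(RPKM + 1), other filters and scalings, read-length class, marker scores, and left-out libraries, some added after seeing the data. The fit was tested on simulated data. The members, partner genes and marker lists were chosen with earlier results of these data known. Members given with every library were those enriched or depleted, the 6 largest differences of each comparison at 5 CPM or more in a subtype, Slit2, Dcc and, chosen after their values were seen, Robo2; at most 3 partner genes were named per comparison. Positions are GENCODE release M21 (GRCm38). Python 3.11.15 made the summaries and figures. Part of the partner list is not reported here.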

Additional observations from a re-analysis of the deposited data

Results flagged for a closer look

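Among the 5 Aβ RA-LTMR libraries, the only subtype with enough libraries to test for a library standing apart, 3 of the 35 members had one by Dixon's criterion (gap to the nearest library over the range above 0.71). Epha10 was lowest in library 5 at 3.81 CPM, with the nearest library at 5.73. Slit1 was highest in library 3 at 111.6 CPM, with the nearest at 80.0. Robo3 was highest in library 5 at 0.624 CPM, with the nearest at 0.178. Chance marks about 1 in 20 groups, and 35 were tested.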

How the results depend on the processing

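Of 1779 single-gene results under alternatives, over 44 results, 1725 kept direction and side of the threshold, 54 lost the threshold and 0 changed direction. The total includes 44 with no fold threshold, where a call could not be lost. It also includes fits that left out a library of a subtype outside the comparison, so the share kept overstates stability. With the satellite glia score 30 stayed the same and 14 lost the threshold. Adjusted for the satellite glia score, 0 members were enriched, 9 were higher in A-fibre subtypes, 5 differed between nociceptors and 9 between proprioceptors and Aβ-LTMRs. Enriched members numbered 2 each with the endothelial score, with the read-length class and without Aδ-LTMR libraries 1 and 2 (added after seeing the data). The 2 members lower in A-fibre subtypes became 4 with total counts, 4 with the read-length class, 5 on log2(RPKM + 0.1), 7 with no fold threshold, and 1 each with a filter of 1 CPM, the replicate block and Aβ RA-LTMR libraries 4 and 5 left out (added later). Depleted members numbered 3 on log2(RPKM + 0.1) and 2 on log2(RPKM + 1). On log2(RPKM + 1), 6 were higher in A-fibre subtypes, 5 differed between nociceptors, 5 between Aβ SA1- and Aβ Field-LTMRs and 9 between proprioceptors and Aβ-LTMRs. The split of higher to lower calls was 10 to 5 on log2(RPKM + 0.1) and 6 to 2 on log2(RPKM + 1) for A-fibre subtypes, 5 to 6 with DESeq2 and 5 to 0 on log2(RPKM + 1) for Aβ SA1- against Aβ Field-LTMRs, 1 to 7 on log2(RPKM + 0.1) for nociceptors, 5 to 4 on log2(RPKM + 1) for proprioceptors and 6 to 2 for C-LTMRs. The median of all genes moved from -0.02 to 0.12 with total counts for Aβ SA1- against Aβ Field-LTMRs, and to -0.20 on log2(RPKM + 0.1) for A-fibre subtypes. In sums of CPM in place of RPKM, the log2 ratio of A-fibre to the other subtypes went from -0.38 to 0.24 for EphB, -0.27 to 0.28 for Slit, 0.68 to 1.21 for ephrin-B, -0.94 to -0.12 for Robo and 0.29 to 0.64 for netrin receptors. Leaving out 1 library gave 29 to 32 members differing among subtypes, 5 to 6 enriched, 4 to 10 depleted (10 without Aβ SA1-LTMR library 3), 14 to 16 higher and 1 to 4 lower in A-fibre subtypes, 10 to 13 between nociceptors, 7 to 11 between Aβ SA1- and Aβ Field-LTMRs, 15 to 20 for proprioceptors and 11 to 12 for C-LTMRs. Within reads of 15 to 50 bases (added later), 14 members differed between nociceptors and 12 for C-LTMRs. The replicate numbers did not pair the libraries: over 84 same-numbered pairs the median correlation of deviations was 0.00153 (-0.154 to 0.239), and 9 of 24 libraries correlated best with their own number. With the replicate block 31 members differed, 6 were enriched, 8 depleted, 15 higher and 1 lower in A-fibre subtypes, 12 differed between nociceptors, 9 between Aβ SA1- and Aβ Field-LTMRs, 17 for proprioceptors and 12 for C-LTMRs. The cause of these shifts was not tested. Members under 1 RPKM are limited by depth.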
